A study of Mus musculus with 10 samples.

Results

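The positions described here are autosomal cytosines that were unmethylated in sperm and methylated in zygotes of the mouse. A position was included with at least 10 counts and at most 20% methylation in each of 2 sperm libraries, and with at least 20 counts and at least 25% methylation over 4 zygote libraries summed. Of 339527 autosomal positions with a count in any library, 45593 passed the sperm limits and 40681 also had the zygote coverage. Of these covered positions, 1048 (2.58%) reached the zygote limit and 39633 stayed below it. The zygote values therefore chose the positions, and the sperm and zygote levels below are a description.

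The assay was reduced representation bisulfite sequencing, which reads CpG-rich DNA next to sites of the restriction enzyme MspI and does not separate methylated from hydroxymethylated cytosine. CKO denotes embryos labelled as maternal Tet3 knockouts and WT denotes wild-type embryos. Both came from eggs of superovulated females aged 7 to 10 weeks, inseminated in vitro with sperm of adult CAST/EiJ males. The embryos carry the strain label C57BL/6J x CAST/EiJ. CKO and WT zygotes were collected at 13 h after fertilisation, with 40 to 50 in each library, and CKO and WT blastocysts at 96 h, with 4 in each. Sperm was wild-type CAST/EiJ. Each of the 5 groups had 2 biological duplicates, so a comparison of genotypes rests on 2 against 2 libraries. The Cre line behind the knockout is not given in the sources used here. All deposited tables, those of the embryos included, are marked CAST in their names, and the sources used here do not say whether embryo reads were limited to the CAST/EiJ allele of the sperm. If they were, each zygote and blastocyst percent describes the paternal copy alone; otherwise it mixes both copies. Whether CAST/EiJ carries the same cytosine as the reference genome at each position was not tested. A position where CAST/EiJ has T in place of C would read as unmethylated in sperm whatever its methylation. Total counts were 2315949 and 2535229 in sperm, 1233982 to 1508297 in zygotes and 1005492 to 1093843 in blastocysts. Coordinates are in build mm9, counted from 1, and no gene annotation of that build was used here.

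Sperm and egg bring differently methylated genomes to the embryo. Sperm DNA is broadly methylated outside CpG islands, while the egg methylates mainly the bodies of genes it transcribes, some CpG islands among them. The best known sites that are methylated in the egg and bare in sperm are the maternally methylated imprinting control regions. Tet3 is a dioxygenase of the egg that oxidises 5-methylcytosine in the fertilised egg, and methylation is further diluted with each cleavage up to the blastocyst. Which parental copy carried the zygote methylation described here cannot be told from these files.

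Sperm read as close to fully unmethylated at these positions, as the rule requires. The pooled sperm level had a median of 0% and a maximum of 18.2%, and 684 positions (65.3%) had no methylated sperm count at all. Zygotes held intermediate methylation there, with a median of 37.8% and quartiles of 29.7% and 51.9% over the 4 libraries summed. By zygote level, 265 positions lay from 25% to below 30%, 485 from 30% to below 50%, 229 from 50% to below 75% and 69 at 75% or more. The zygote counts behind a position ranged from 20 to 150, with a median of 42. The share of covered positions that reached the limit was 3.21% at 20 to 29 zygote counts, 2.00% at 60 to 99 and 2.31% at 100 or more. Of all covered positions, 84.9% had no methylated zygote count, so a position at 25% or more was rare among positions bare in sperm.

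Positions close to the 25% limit were numerous on both sides. Within 1 percentage point there were 75 positions just inside and 45 just outside. The best covered of those inside were position 101967123 of chromosome 15 with 25.8% of 132 zygote counts, position 71966730 of chromosome 17 with 25.5% of 106 and position 86837387 of chromosome 3 with 25% of 104. Just outside were position 3411939 of chromosome 7 with 24.7% of 97 counts, position 94593408 of chromosome 1 with 24.1% of 87 and position 92811557 of chromosome 1 with 24.7% of 85. Blastocyst levels did not separate along this line: they were 41.5%, 3.33% and 6.12% at the 3 positions inside and 3.13%, 32.8% and 8.33% at the 3 outside.

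Over the summed counts of the 1048 positions, methylation in CKO zygotes was 42.0% and 46.4% in replicates 1 and 2, against 42.9% and 39.02% in WT zygotes. The zygote libraries of both genotypes overlapped. CKO blastocysts held 15.4% and 15.2%, against 19.5% and 17.7% in WT blastocysts. Every blastocyst library lay below every zygote library, and both CKO blastocyst libraries lay below both WT blastocyst libraries. The sperm libraries held 2.51% and 2.32%. At the 39633 covered positions below the limit, the levels were 1.43% and 1.26% in CKO zygotes, 1.09% and 1.15% in WT zygotes, 1.08% and 1.12% in CKO blastocysts, 1.23% and 1.06% in WT blastocysts and 0.726% and 0.725% in sperm.

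**Figure D1:**
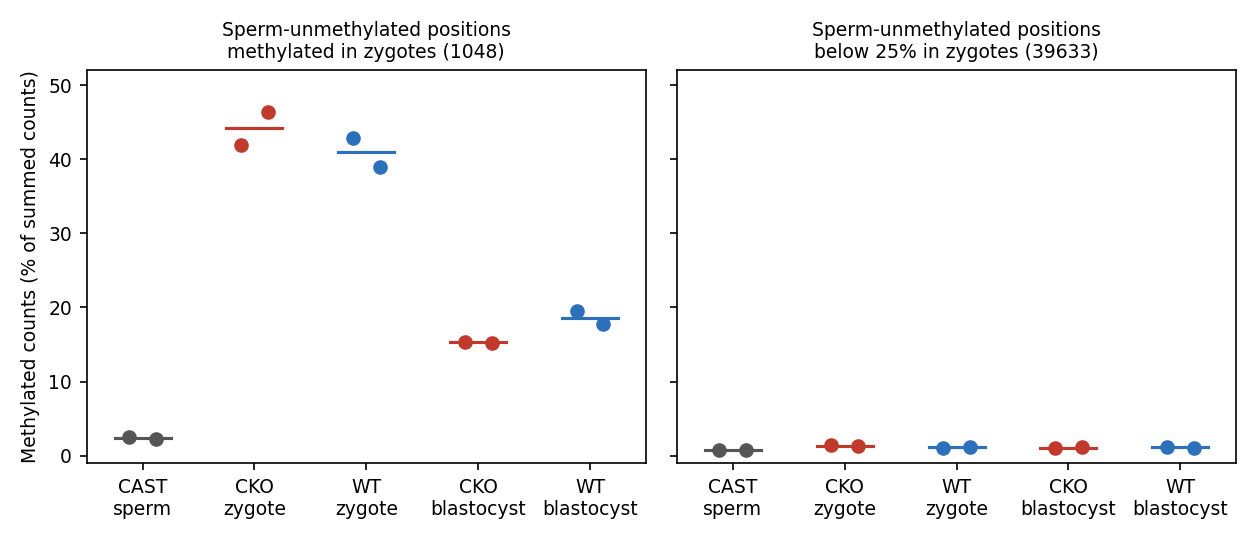
Methylated counts as a percentage of summed counts in each library (points) with the group mean (line), for the 1048 sperm-unmethylated positions methylated in zygotes (left) and the 39633 that stayed below 25% in zygotes (right). On the left, zygote libraries lie between 39.02% and 46.4% and blastocyst libraries between 15.2% and 19.5%; on the right every library lies below 1.5%.

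The group means were 44.2% ± 3.12 in CKO zygotes and 41.0% ± 2.75 in WT zygotes (SD, n = 2 each). They differed by 3.22 points, with an SD of 4.16 points, which is within the spread between replicates. In blastocysts the means were 15.3% ± 0.126 in CKO and 18.6% ± 1.25 in WT (SD, n = 2 each), a difference of -3.33 points with an SD of 1.25 points. The blastocyst difference was larger than the spread between replicates, and no test was made of these means because the positions are a chosen list. Positions covered by the same reads enter these sums separately, so the summed counts are not numbers of reads.

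The positions lay in clusters. Joined where neighbours were at most 100 bp apart, they formed 547 clusters, of which 315 were single positions and 114 held 3 or more. A total of 733 positions (69.9%) had at least 1 other within 100 bp, and the largest cluster held 13. The 114 larger clusters contained 497 of the positions, with a median span of 40 bp and a maximum of 140 bp. Within their spans 607 positions were covered and bare in sperm, and 81.9% of these reached the zygote limit. In 56 of the 114, every covered position of the span did so. The spans start and end on zygote-methylated positions and hold at least 3 of them, so these shares are set in part by the choice on zygote values.

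Among covered neighbours within 100 bp of a zygote-methylated position, 52.9% were zygote-methylated too, against 1.03% of the neighbours of other covered positions. The median number of covered neighbours was 3 for the zygote-methylated positions and 4 for the others. The share was 46.6% at 1 bp, 56.1% at 2 to 10 bp, 54.5% at 11 to 50 bp and 38.6% at 51 to 100 bp. It was 34.0% at 101 to 200 bp, 31.9% at 201 to 500 bp, 22.4% at 501 to 1000 bp and 8.48% at 1001 to 10000 bp. At 10001 to 100000 bp it was 3.25%, against 2.58% of all covered positions. Neighbouring positions can be read from the same molecules: adjacent zygote-methylated positions of a cluster had the same count in 89.6% of 2004 comparisons within a library.

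**Figure D2:**
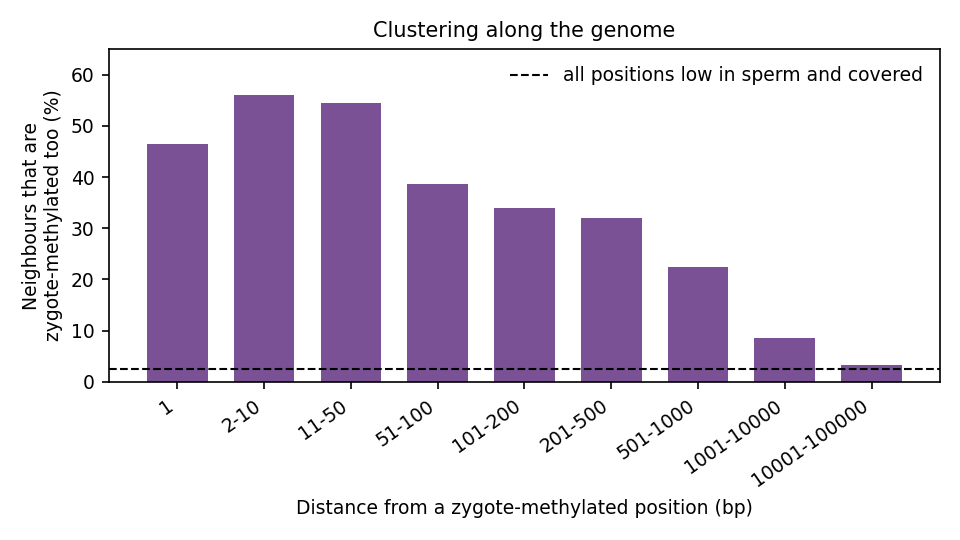
Share of covered, sperm-unmethylated neighbours that also reached 25% in zygotes (bars, %), by distance from a zygote-methylated position in bp; the dashed line marks the 2.58% of all covered positions. The share is 56.1% at 2 to 10 bp, 22.4% at 501 to 1000 bp and 3.25% at 10001 to 100000 bp.

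Positions at 80% or more in sperm were seldom next to them. Only 9 of the 1048 positions (0.859%) had a neighbour within 100 bp that was at least 80% methylated in sperm, against 5.96% of the other covered positions. A neighbour above 20% in sperm was present for 66 of them (6.30%), against 7.61% of the others. Positions 1 bp apart, taken as the opposite strands of a CpG, formed 56 covered pairs with at least 1 zygote-methylated cytosine. In 17 pairs both cytosines reached the limit. In 39 only a single strand did, and there the partner had a median of 12.5% and was at 0 in 5 pairs. The median difference between the strands of the 56 pairs was 17.3 points, and at 292 sperm-methylated pairs it was 13.6 points. All 19 autosomes held such positions, and the share of covered positions ranged from 1.19% on chromosome 19 (17 positions) to 4.11% on chromosome 17 (63 positions).

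The cluster with the most positions lay on chromosome 15 at 97662102 to 97662241, with 13 of 19 covered positions above the limit. Its methylation was 64.9% and 33.3% in CKO zygotes, against 37.6% and 60% in WT zygotes. All 4 blastocyst libraries and both sperm libraries were at 0%. The best covered position had 4 to 6 counts in each blastocyst library, 20 in all, which allows a level of up to 15%. Every zygote library was methylated here and no blastocyst library showed any.

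The next cluster, on chromosome 1 at 21156520 to 21156625, held 12 positions. It had 52.3% and 18.2% in CKO zygotes against 51.5% and 54.5% in WT zygotes, and 1.39% and 23.9% in CKO blastocysts against 18.3% and 13.6% in WT blastocysts. On the same chromosome at 33777100 to 33777150, all 11 covered positions passed. This cluster had 49.1% and 75.5% in CKO zygotes against 47.7% and 45.5% in WT zygotes, and 32.7% and 9.09% in CKO blastocysts against 0% and 3.31% in WT blastocysts. In both chromosome 1 clusters every blastocyst library lay below the mean of its genotype's zygotes. At the second the CKO libraries lay above the WT libraries at both stages, with 49.1% against 47.7% at the closest in zygotes. Its best covered position had only 4 and 2 counts in the WT zygote libraries and 5 in CKO blastocyst replicate 1.

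The cluster on chromosome 8 at 26830445 to 26830501 held 9 positions. It had 13.8% and 45.8% in CKO zygotes against 72.8% and 43.0% in WT zygotes, and 3.77% and 31.9% in CKO blastocysts against 29.3% and 20.1% in WT blastocysts. Replicates of a genotype differed here by more than the genotypes did. On chromosome 11 at 77029583 to 77029620, with 8 positions, CKO zygotes had 5.36% and 79.5% against 15.0% and 23.1% in WT zygotes. There the CKO replicates enclosed both WT values. Of its blastocyst libraries, CKO replicate 1 had no count and CKO replicate 2 had 0 of 8, so its WT blastocyst values of 41.0% and 9.38% had no usable counterpart.

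The remaining 5 of the 10 clusters with the most positions held 7 or 8 each. On chromosome 1 at 190831558 to 190831597, CKO zygotes had 51.6% and 52.1% against 23.0% and 11.9% in WT zygotes, and blastocysts had 0% in both CKO libraries against 26.7% and 0% in WT. On chromosome 12 at 8506580 to 8506679, CKO zygotes had 54.5% and 100% against 43.8% and 0% in WT zygotes. The CKO zygote libraries lay above the WT zygote libraries in both clusters. In the chromosome 12 cluster the best covered position had only 6 and 3 counts in the CKO zygote libraries. The chromosome 16 cluster at 87432691 to 87432765 had 38.0% and 58.3% in CKO zygotes against 36.4% and 51.3% in WT zygotes, and its blastocysts held 5.08% and 0% in CKO against 0% and 15.2% in WT. The chromosome 9 cluster at 59539722 to 59539764 had 7.94% and 33.1% in CKO zygotes against 51.4% and 45.5% in WT zygotes. Its blastocysts ranged from 100% of 14 counts in CKO replicate 1 to 0% of 49 in CKO replicate 2, with 36.3% and 6.59% in WT. On chromosome 18 at 37107771 to 37107904, zygotes had 42.5% and 42.9% in CKO against 52.3% and 46.2% in WT, and blastocysts 54.1% and 57.4% in CKO against 8.33% and 47.4% in WT. This was the only one of the 10 whose CKO blastocysts both exceeded both CKO zygote libraries. Among all 77 clusters of 3 or more positions with a count in every embryo library, 5 (6.49%) had genotypes without overlap and in opposite order at the stages, this one among them. Of the 50 with 10 or more counts in every embryo library it was 2 (4.00%).

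Among the 67 clusters with at least 3 positions and at least 10 counts in each blastocyst library, 9 were at 0% in blastocysts and 18 held 25% or more in the pooled blastocysts. Only 4 held 25% or more in each blastocyst library, and 2 lay above their own zygote level. The highest in blastocysts lay on chromosome 8 at 34594870 to 34594916. It had 58.3% and 78.6% in CKO zygotes against 24.1% and 36.4% in WT zygotes, and 62.5% and 54.2% in CKO blastocysts against 76.9% and 91.7% in WT blastocysts, with 0.952% and 1.56% in sperm. All 6 covered positions of this stretch passed the limit. Both WT blastocyst libraries lay above both WT zygote libraries there, and in CKO the stages overlapped.

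The other clusters with the highest blastocyst levels lay on chromosome 7 at 6154157 to 6154177 (64.1% over all blastocyst counts) and at 90943012 to 90943058 (55.6%), on chromosome 5 at 145425952 to 145426019 (52.1%) and on chromosome 8 at 106863914 to 106863939 (49.3%). In zygotes these 4 had 82.1%, 76.9%, 85.7% and 57.8%. The chromosome 8 cluster had 27.3% in both CKO blastocyst libraries against 64.7% and 81.0% in WT blastocysts, without overlap, while its zygotes had 27.8% and 66.7% in CKO against 77.1% and 27.5% in WT. Of the 67 clusters, 8 had both CKO blastocyst libraries below both WT libraries and 7 had both above, so neither direction prevailed. Of the 9 clusters at 0% in blastocysts, the 5 with the most blastocyst counts are named. They were the chromosome 15 cluster above and those on chromosome 1 at 135389784 to 135389796, chromosome 11 at 96207366 to 96207416, chromosome 4 at 134479999 to 134480035 and chromosome 19 at 29175840 to 29175866. The best covered position had 79, 45, 35 and 21 blastocyst counts there, which allows levels of up to 3.80%, 6.67%, 8.57% and 14.3%. At the chromosome 1 cluster all zygote methylation came from CKO replicate 2, with 87.5% against 0% in the other 3 zygote libraries.

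**Figure D3:**
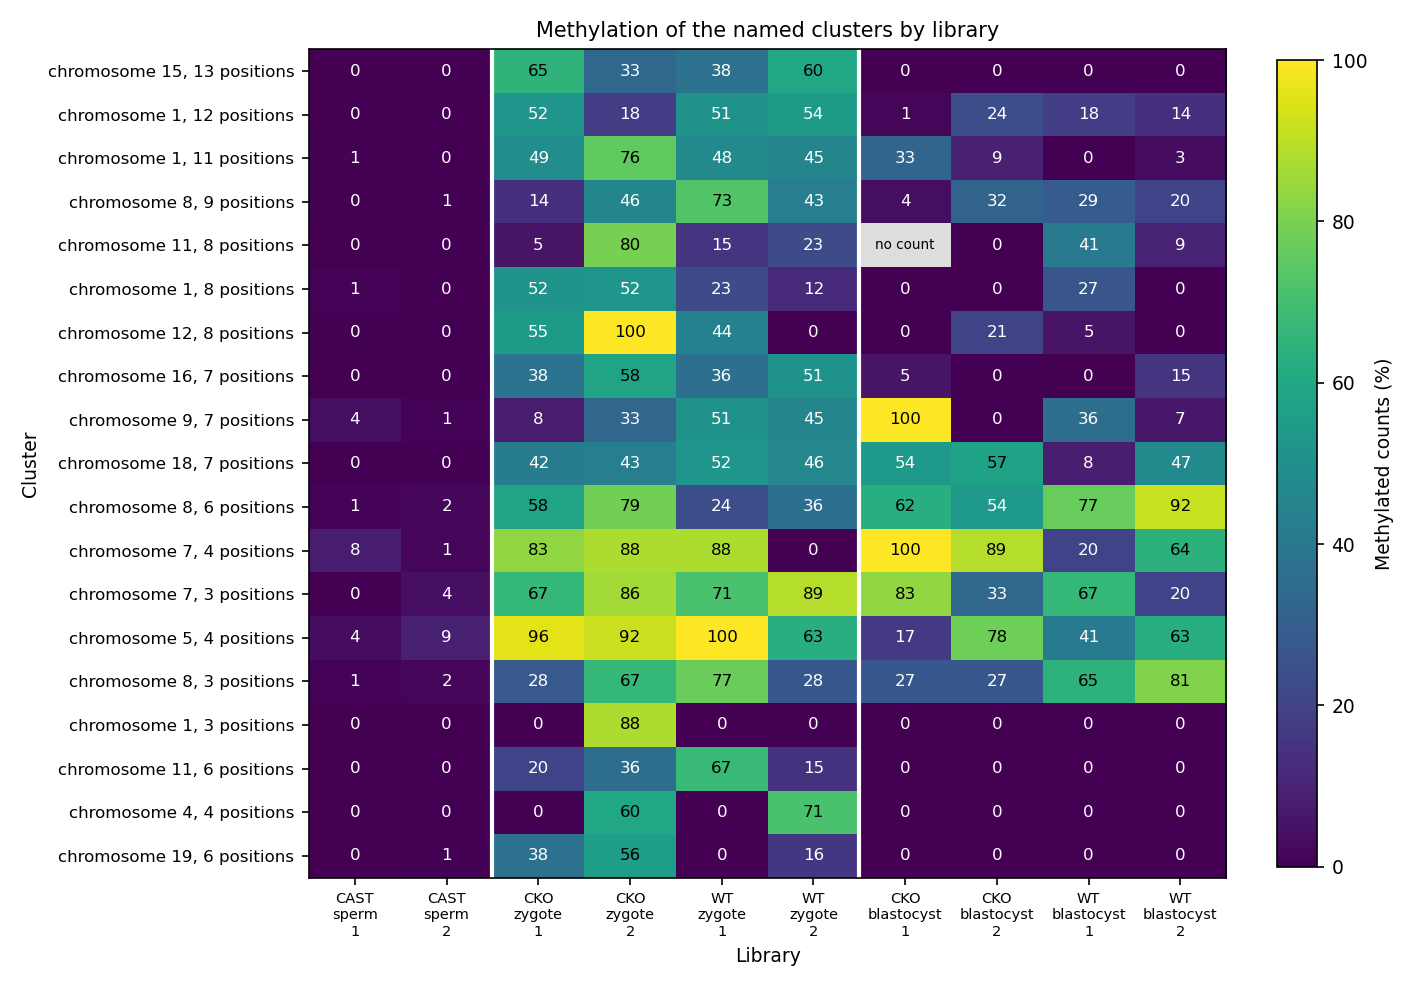
Methylation of the 19 clusters named in the text (rows, labelled by chromosome and number of positions; the first 10 have the most positions, the next 5 the highest blastocyst level, and the last 4, with the first row, are the best covered of 9 at 0%) in each of the 10 libraries (columns), as a percentage of summed counts by colour and number. Sperm columns stay at or below 9%, zygote columns are uneven within a row, and the last 4 rows and the first are at 0 in all blastocysts.

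Replicates agreed poorly at these positions taken singly. At the 145 positions that every zygote library covered with 10 or more counts, the median absolute difference was 26.6 points between the CKO replicates and 27.3 points between the WT replicates. Between a CKO and a WT library it was 25 to 28.6 points, so libraries of different genotype differed about as much as replicates of the same genotype did. Pearson's r over these positions was 0.08 between the CKO replicates, 0.15 between the WT replicates and 0.05 to 0.25 between genotypes, with all points drawn from the same libraries. The positions were chosen on the sum of these libraries, which narrows their range of levels, so r is set in part by the choice. Over all 11884 autosomal positions of that coverage, r was 0.81 between CKO and 0.73 between WT replicates, with median differences of 0 points. The variance between libraries was 5.44 to 7.32 times that of binomial counting. At 3896 sperm-methylated positions of the same coverage, the median differences were 20.4 points between CKO and 25.7 points between WT replicates, and the variance 5.89 to 7.5 times binomial. Uneven replicates were thus not particular to the positions bare in sperm.

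At 445 positions with at least 5 counts in each zygote library, 46 reached 25% in 1 library, 163 in 2, 146 in 3 and 90 in all 4. At least 1 zygote library stood at 0% at 270 of them (60.7%). Over all 1048 positions, 150 (14.3%) drew at least 90% of their methylated zygote counts from a single library. The summed blastocyst level at positions with 1, 2, 3 and 4 such zygote libraries was 11.4%, 10.9%, 17.4% and 27.3% in CKO and 14.7%, 17.7%, 20.7% and 28.8% in WT. At the 145 of higher zygote coverage, 10 or more counts in every library, it was 25.6%, 12.2%, 19.7% and 29.4% in CKO and 29.3%, 25.9%, 21.8% and 34.8% in WT. The class of 4 libraries was highest in both genotypes at both count minimums. The classes below it had no common order, and the class of 1 library held only 10 positions at the higher minimum. The mean zygote level was 28.2%, 34.0%, 44.9% and 61.4% over the classes at 5 counts, so the number of libraries and the level cannot be told apart here.

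Because the zygote files chose the positions, the choice was repeated on part of them and read in the rest, with the same limits. On the replicate 1 zygote files alone 795 positions passed, with 42.6% in those files. The replicate 2 files held 25.1% in CKO and 25.6% in WT at the same positions, against 1.54% over both at the positions not chosen. Of the 718 with at least 10 counts in the replicate 2 files, 301 (41.9%) again reached 25%. On the replicate 2 files 696 positions passed, with 43.0% in those files and 24.9% in CKO and 26.4% in WT in the replicate 1 files, against 1.60% at the positions not chosen. Much of the level in the choosing files was not found in the other replicate, and what was found lay far above the background.

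The choice carried over between genotypes to a similar extent. The 808 positions chosen on CKO zygotes held 24.9% and 23.2% in the WT zygote libraries, against 1.38% over both at the positions not chosen. The 692 chosen on WT zygotes held 26.2% and 26.8% in the CKO zygote libraries, against 1.68%. The share of the chosen positions that reached 25% in the other genotype was 38.5% and 45.4%, compared with 41.9% and 41.5% in the other replicate. Each genotype's zygotes therefore held methylation at positions chosen on the other.

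**Figure D4:**
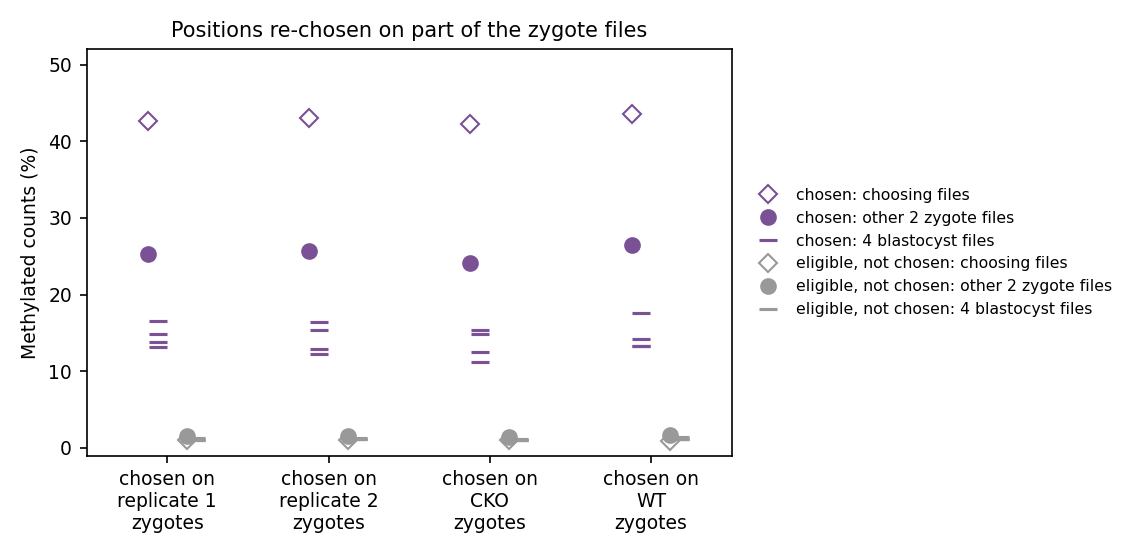
Methylation (% of summed counts) of positions chosen on 2 of the 4 zygote files (purple) and of covered positions not chosen (grey), in the choosing files (open diamonds), the other 2 zygote files (circles) and each of the 4 blastocyst files (dashes). Chosen positions hold 42.3% to 43.5% in the choosing files, 24.1% to 26.4% in the other zygote files and 11.2% to 17.6% in blastocysts, and positions not chosen stay below 2%.

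Blastocysts held less methylation than zygotes at most of these positions. Of 622 positions with at least 10 counts in the blastocysts of each genotype, 566 (91.0%) lay below their zygote level and 56 at or above it. In CKO blastocysts, 360 of 751 covered positions (47.9%) were at 0% and 62 (8.26%) at 50% or more. In WT blastocysts, 365 of 820 (44.5%) were at 0% and 94 (11.5%) at 50% or more. The zygote level was used to choose the positions, so these falls are a description. At the positions chosen on the replicate 1 zygote files, for which the replicate 2 zygote files held 25.1% in CKO and 25.6% in WT, blastocysts held 13.8% and 13.2% in CKO and 16.5% and 14.8% in WT. At those chosen on replicate 2, where the replicate 1 zygote files held 24.9% in CKO and 26.4% in WT, blastocysts held 12.9% and 12.3% in CKO and 16.4% and 15.3% in WT. Each blastocyst library lay below the zygote libraries that had not been used for the choice.

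What remained was shared between genotypes in part. Of the 622 positions, 175 (28.1%) were at 0% in both genotypes and 102 (16.4%) at 25% or more in both. At 25% or more in a single genotype were 76 positions in CKO and 113 in WT, and 331 were below in both. Among 330 positions with at least 5 counts in each blastocyst library, 88 were at 0% in all 4 libraries and 14, in 12 clusters, at 25% or more in all 4. The 88 had 23 to 82 blastocyst counts each, which allows a level of up to 13.0% at the fewest and 3.66% at the most. The kept positions included all 3 of the chromosome 8 cluster at 106863914. Outside it, position 36822575 of chromosome 13 had 60% and 30% in CKO blastocysts against 50% and 44.4% in WT, after 71.6% of 74 zygote counts. Position 119715655 of chromosome 5 had 40% and 71.4% in CKO blastocysts against 85.7% and 34.8% in WT, after 50.5% of 97 zygote counts. These single positions were chosen for display after their values were seen.

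The blastocyst level increased with the zygote level across the whole range. At covered positions with 0 to below 5% in zygotes, blastocysts held 0.808%, and at 5 to below 15% and 15 to below 25% they held 3.5% and 6.44%. At the zygote-methylated positions the blastocyst level was 10.3% for those from 25% to below 30% in zygotes, 15.0% from 30% to below 50%, 23.9% from 50% to below 75% and 36.5% at 75% or more. There was no step at the 25% limit. In the highest class CKO blastocysts held 34.6% and 35.2% against 40.2% and 35.8% in WT. In the class from 25% to below 30%, CKO blastocysts held 8.56% and 8.64% against 13.7% and 10.0% in WT. CKO libraries lay below both WT libraries in each of the 4 classes. Single positions held less in blastocysts than clustered ones, without a steady increase by cluster size. In CKO blastocysts the level was 10.8% at single positions, 14.5% in clusters of 2, 19.1% in clusters of 3 to 5 and 17.6% in clusters of 6 or more. In WT blastocysts it was 15.0%, 21.5%, 20.3% and 16.6%, so CKO lay above WT in the largest clusters. Zygote levels were 36.6%, 43.9%, 47.0% and 45.2%.

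**Figure D5:**
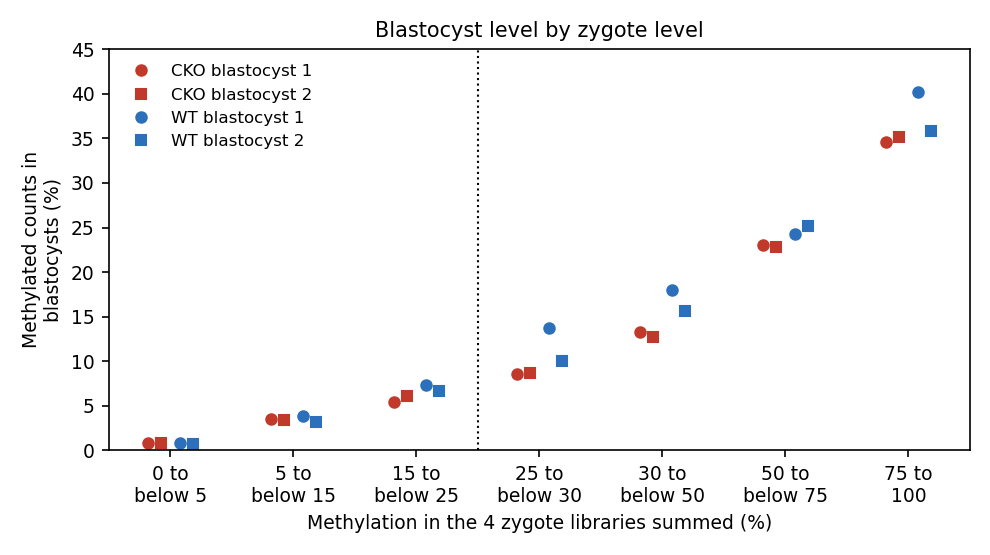
Methylated counts in each blastocyst library (%, points: circles for replicate 1, squares for replicate 2, CKO red and WT blue) by the methylation of the same positions in the 4 zygote libraries summed (%, classes on the x axis); the dotted line marks the 25% limit. Blastocyst levels increase from 0.808% in the lowest class to 36.5% in the highest over the 4 libraries, with no step at the limit.

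The 10 positions at 90% or more of at least 40 zygote counts showed how far the outcome could vary; this group was also picked after the values were seen. They lay on 8 chromosomes, and 4 of them were above 50% in blastocysts while 2 were at 0%. At position 112231346 of chromosome 12, 72 of 77 zygote counts were methylated (93.5%, 95% exact interval 85.5 to 97.9) and 0 of 52 blastocyst counts, which allows up to 5.77%. At position 25706040 of chromosome 8, 94 of 102 zygote counts were methylated (92.2%, 85.1 to 96.6) and 36 of 59 blastocyst counts (61.0%, 47.4 to 73.5). Sperm had 0 of 58 and 1 of 100 methylated counts there. Pooled over the zygote libraries, both positions were thus nearly fully methylated, and they differed in blastocysts beyond counting error. Single zygote libraries were lower: WT replicate 2 had 58.3% of 12 counts at the chromosome 12 position. CKO replicate 2 had 60% of 20 at the chromosome 8 position. Intervals and limits cover counting error only, since reads carry no molecular identifiers and few embryos entered a library.

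A pair of neighbouring positions on chromosome 7, also picked after the values were seen, was covered by more than 100 counts at each stage. Position 67149489 had 52.6% and 28.6% in CKO zygotes against 33.3% and 37.5% in WT zygotes, and 47.5% and 38.5% in CKO blastocysts against 40% and 20% in WT blastocysts. Position 67149537 had 44.7% and 28.6% in CKO zygotes against 33.3% and 37.5% in WT zygotes, and 42.5% and 38.5% in CKO blastocysts against 30% and 16.7% in WT blastocysts. Sperm had 0 of 83 counts at each. Over all embryos of a stage the first held 39.5% in zygotes (95% exact interval 30.4 to 49.1) and 37.2% in blastocysts (28.9 to 46.2), and the second 36.8% (28.0 to 46.4) and 33.3% (25.3 to 42.2). The pair kept in blastocysts about the level it had in zygotes. Both positions had equal counts in every library and can be covered by the same reads, so they are not separate observations. Position 67149488, 1 bp before the first, is taken as the opposite strand of the same CpG. It had 0 of 46 zygote counts and 0 of 45 blastocyst counts, which allows up to 6.52% and 6.67%. At this CpG, methylation was thus read on a single strand.

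Genotypes were tested position by position with edgeR's quasi-likelihood test on the methylated and unmethylated counts of all 2737 autosomal positions covered by 10 or more counts in every embryo library. Only 25 of the 1048 positions, in 18 clusters, had that coverage. The test called 0 of these 25 between CKO and WT zygotes and 0 between CKO and WT blastocysts, and 0 for the change of the genotype difference between stages. Over all positions tested it called 0%, 0% and 0%. On simulated data of these coverages the test missed most of the differences put in, so the absence of calls does not show that positions were alike. At an unadjusted p below 0.05 there were 3 of the 25 in zygotes, in 2 clusters, against 2.30% of all positions tested. All 3 stood at 0% in both WT zygote libraries and so passed the zygote limit through CKO alone, and nothing is read from that count. There were 3 in blastocysts, all lower in CKO, against 1.86%, and 5 for the change between stages, all towards a lower CKO, against 1.68%. The 5 include the 3 zygote positions above. They also include positions 107211941 and 107211946 of chromosome 12 and 51920770 and 51920774 of chromosome 7, and the same reads can cover both of each. The change between stages also uses the zygote values that chose the positions, so nothing is read from that count. A position without methylation in any embryo library cannot reach a small p, so the shares over all positions are not a matched background. limma on the log2 ratio of methylated to unmethylated counts called 0 in each comparison. edgeR's likelihood ratio test with a common dispersion called 0, 0 and 2 of the 25, against 0%, 0.0365% and 0.146% of all positions tested. Over all positions it called 4 for the change between stages, all from 107211941 to 107211975 of chromosome 12. The 2 of the 25 were positions 107211941 and 107211946, so these calls and the 0.146% come from the same stretch. Summed over 100-bp tiles, edgeR's quasi-likelihood test called 0 tiles in zygotes and 0 in blastocysts. For the change between stages it called 1 of 7546 tiles (0.0133%), the one that holds these 2 positions. Both are among those at 0% in both WT zygote libraries, so nothing is read from these calls.

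The median fitted genotype effect of the 25 had opposite signs at the stages, and its sign in blastocysts depended on a single library. As a log2 odds ratio it was 0.57 in zygotes, against 0.20 over all 2737 positions, and -0.78 in blastocysts, against 0.14. Without WT blastocyst replicate 1 the blastocyst median became 0.48. Leaving out any other blastocyst library gave -1.86 to -0.39. The effect was above 0 for 18 of the 25 in zygotes and 10 of the 25 in blastocysts. Their mean level was 45.8% ± 3.68 in CKO zygotes and 28.1% ± 2.74 in WT zygotes (SD, n = 2 each), a difference of 17.7 points with an SD of 4.58 points. In blastocysts it was 22.4% ± 4.55 in CKO and 31.5% ± 0.708 in WT (SD, n = 2 each), a difference of -9.12 points with an SD of 4.61 points. These 25 do not stand for the 1048: their WT zygotes were lower and their WT blastocysts higher than over all positions. At the 180 covered by at least 5 counts in every embryo library, zygotes held 43.2% ± 0.487 in CKO and 37.3% ± 0.930 in WT, and blastocysts 17.5% ± 1.86 in CKO and 21.1% ± 1.46 in WT (SD, n = 2 each). The differences of 5.93 and -3.58 points had SDs of 1.05 and 2.37 points. The zygote and between-stage values of both sets rest in part on the values that chose the positions. The test on the 15222 positions of that coverage called 0 of the 180 in each comparison, against 0% of all. At an unadjusted p below 0.05 there were 10, 3 and 6, against 2.12%, 1.16% and 1.07%. Nothing is read from the zygote and between-stage counts, which use the values that chose the positions. The shares over all positions are again not a matched background.

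Wider fits at a single stage gave no call either. With the 4 zygote libraries alone, 145 of the positions were tested among 11884, and edgeR called 0 of them and 0% of all. Of the 145, 4 had an unadjusted p below 0.05, against 1.25% of all. All 4 stood at 0% in both zygote libraries of 1 genotype and so passed the zygote limit through the other alone. Nothing is read from that count. With the 4 blastocyst libraries alone, 54 were tested among 5858, with 0 called and 0% of all, and 3 at an unadjusted p below 0.05, against 2.42%. That share is not a matched background either. Of single positions, the smallest p in the 8-library test belonged to position 107211946 of chromosome 12, for the change between stages. It had 60% and 87.9% in CKO zygotes against 0% in both WT zygote libraries, and 0% in both CKO blastocyst libraries against 61.5% and 55.2% in WT blastocysts, with 10 to 33 counts in each. Its adjusted p was 0.560 (edgeR's quasi-likelihood test, Benjamini-Hochberg over 2737 positions). The genotypes did not overlap at either stage and stood in opposite order, and the change did not pass the test. Such an opposite order was present at 5 of the 25 (20.0%), against 66 of all 2737 positions tested (2.41%). The 5 were positions 107211941 and 107211946 of chromosome 12, 51920770 and 51920774 of chromosome 7 and 76535768 of chromosome 10. Within the chromosome 12 and chromosome 7 pairs, counts were equal in every library, so the same reads can cover both positions. A position at 0% in all libraries of a stage cannot show such an order, so the share over all positions is not a matched background. The zygote values chose the 25, so the shares are a description.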

How the data were processed

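Per the labels, the series holds 10 libraries of reduced representation bisulfite sequencing, 2 in each of 5 groups. The authors deposited, per cytosine position, a percent of methylation beside the counts of methylated and of unmethylated reads. Per the submitters' processing notes, reads were handled with Trim Galore and Bismark 0.10.1 on mm9, with settings not given in the sources used here. The percent was recomputed from the deposited counts wherever values were summed.

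Positions and lists were chosen with earlier results of these data known. Clusters joined positions at most 100 bp apart. Positions and clusters were named by coverage and rank: the 10 clusters with the most positions, the 5 with the highest and the 5 with the lowest blastocyst level among those with at least 3 positions and 10 counts in each blastocyst library (ties by blastocyst counts), and the 3 positions on each side of the zygote limit with the most counts. Single positions named beyond these were chosen after their values were seen.

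Genotypes were compared in R 4.3.3 with the quasi-likelihood F-test of edgeR 4.0.16, with a negative binomial dispersion of 0, a depth term for each library and a methylation term for each of the 4 embryo groups, on autosomal positions with at least 10 counts in each embryo library. P-values were adjusted by Benjamini-Hochberg over all positions tested, at a threshold of 0.05. limma 3.58.1 was an alternative. The test was checked on simulated data at the real coverages, where it made almost no false calls and missed most of the differences put in, large ones included. P-values measure the spread between biological duplicates. Alternatives were the count minimum, 100-bp tiles, other tests, the replicate block, leaving out each library, other limits of the rule, and positions chosen on part of the zygote files. Fits on the 4 zygote or the 4 blastocyst libraries alone were added after the data were seen. Intervals are exact (Clopper-Pearson, 95%), and where no count was methylated the upper limit is 3 counts over the total. Positions on chromosome X are given apart. No sequence was printed, since no mm9 genome was used here.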

Additional observations from a re-analysis of the deposited data

Results flagged for a closer look

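The mean level of the 25 best covered positions (10 or more counts in every embryo library) stood out because CKO lay above WT in both zygote libraries and below WT in both blastocyst libraries. CKO minus WT was 17.7 points for zygotes and -9.12 points for blastocysts, which is a change of -26.8 points. At the 180 covered by 5 or more counts the differences were 5.93 and -3.58 points, a change of -9.51 points in the same pattern. Over all 1048 positions the zygote libraries overlapped, with differences of 3.22 and -3.33 points. None of these changes of a mean was tested, and the zygote values chose the positions.

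Of the 18 named clusters with a count in every embryo library, 2 (11.1%) showed opposite genotype differences without overlap at both stages. Among all 77 clusters of 3 or more positions with such counts it was 5 (6.49%), and among all 2737 positions tested 66 (2.41%). Positions without methylation throughout a stage cannot show this pattern, so the share over all positions is not a matched background. On chromosome 8 at 34594870, CKO minus WT changed by -64.2 points, being 38.2 points for zygotes and -26.0 points for blastocysts. The best covered position of that cluster had only 4 counts in CKO zygote replicate 1 and 4 in CKO blastocyst replicate 1. On chromosome 18 at 37107771 it changed by 34.5 points, being -6.55 points for zygotes and 27.9 points for blastocysts. There the blastocyst difference came with a WT replicate 1 of 8.33% over 24 counts, against 47.4% of 95 in WT replicate 2. These differences between stages were not tested.

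On chromosome 12 the genotype difference changed by -132.3 points at position 107211946 and by -117.2 points at position 107211941. The edgeR quasi-likelihood test of the change gave adjusted p-values of 0.560 and 1. The likelihood ratio test with a common dispersion gave 0.00286 and 0.0471. For the change it put 6.36% of all positions tested at an unadjusted p below 0.05, against 1.68% in the quasi-likelihood test. Both positions stood at 0% in both WT zygote libraries and so passed the zygote limit through CKO alone. The change uses those zygote values, so nothing is read from these p-values. The positions had equal counts in each library and can be covered by the same reads.

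On chromosome X, outside the autosomal rule, 11 of 226 covered positions (4.87%), in 7 clusters, met the same limits. They held 45.8% of 96 summed counts in CKO blastocysts and 16.7% of 78 in WT blastocysts. By library this was 56.3% and 40.6% in CKO against 5.88% (of 17 counts) and 19.7% in WT blastocysts. The sperm libraries held 3.704% and 3.23%, where the same limits require 20% or less. The zygote libraries held 36.7% and 58.1% in CKO against 64.6% and 31.3% in WT. Positions of a cluster can share reads, so these sums are not numbers of reads and carry no interval. The sex of the embryos is not given, and this difference was not tested.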

How the results depend on the processing

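Of 101 alternative values for 10 results, 78 stayed within the spread or within 1.5 times the main count and 23 moved. The cause was not tested. Some of the 78 could not move: a limit of 40 zygote counts is already met by 10 counts in each of 4 zygote libraries. Many others are comparisons with 0 calls, from a test that missed most simulated differences. The tally is therefore no measure of how firm the results are. CKO minus WT zygotes, 17.7 points over 25 positions, was 5.93 at a count minimum of 5, 3.22 with summed counts over all 1048 positions, 10.99 with a sperm limit of 5%, -2.46 with a zygote limit of 50% (3 positions), and 5.03 or 8.49 for positions chosen on replicate 1 or 2 and read in the other. CKO minus WT blastocysts, -9.12, was -3.58, -3.33, -2.93 and -3.22 under the first 4. Blastocyst minus zygote in CKO, -23.4, was -40.5 with a zygote limit of 50% and -7.46 or -15.0 for positions chosen on replicate 1 or 2. In WT it was 3.39, and became -16.2 at a count minimum of 5, -22.3 over all positions, -0.09998 with summed counts of the 25, -4.20 with a sperm limit of 5% and -39.8 with a zygote limit of 50%. For positions chosen on replicate 1 or 2 the WT value was 4.04 or 3.49. Leaving out 1 library gave 15.1 to 20.3, -12.3 to -5.90, -26.7 to -20.2 and 1.45 to 5.33 for these 4. Median replicate differences of 26.6 points in CKO and 27.3 points in WT were 33.3 and 30.8 at a count minimum of 5. Calls were 0 in each comparison and stayed 0 without any 1 library. They became 1 for the change between stages in 100-bp tiles, and 1 in blastocysts and 4 for the change under the likelihood ratio test. Those 4 lay in a single stretch of chromosome 12. Same-numbered libraries correlated at -0.03 to 0.03, so the numbers pair nothing, and the replicate block called 0 in each comparison. At a count minimum of 20, 38 positions and none of the 1048 remained. The 547 clusters became 805 at a gap of 10 bp and 508 at 1000 bp. Depth limits single positions: few reached 10 counts in every embryo library.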
